A study of Mus musculus with 2 samples.

Results

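Perivascular cells of the newborn mouse ovary were examined in single-cell RNA-seq data from whole P2 (postnatal day 2) ovaries. Among 8202 cells that passed the quality filter, 93 were taken as perivascular: 48 of 3738 in replicate 1 and 45 of 4464 in replicate 2. A cell was a member when it had at least 500 detected genes, at most 10% of its unique molecular identifiers (UMIs, counted transcripts) on mitochondrial genes, at least 2 UMIs of Rgs5 and at least 1 UMI each of 2 or more of 6 further genes, Cspg4, Notch3, Mcam, Kcnj8, Abcc9 and Acta2. Cells with 0.05% or more of their UMIs on the germ cell genes Ddx4, Dazl and Ooep, or with 3 or more of the endothelial genes Pecam1, Cdh5, Kdr, Tie1, Cldn5 and Tek detected, were left out. The members were therefore selected on measured values, and the genes of the rule are described below without a test.

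Both libraries were made from ovaries of female CD1 mice, an outbred strain, at postnatal day 2, with no treatment or genotype difference between them. Each library pooled 6 ovaries of 3 pups born to a single mother, so that a value belongs to a pool and never to a single animal. The ovaries were dissociated with collagenase IV and Accumax, and no sort for a marker is described. The deposited matrices held 4094 and 4847 cells with 54471790 and 59074480 UMIs, and 356 and 383 of these cells did not pass the filter.

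Pericytes and vascular smooth muscle cells, together called mural cells, wrap the endothelial tube of small vessels, share its basement membrane and set its tone by contraction. Endothelial cells attract them with PDGF-B, which binds PDGF receptor β on the mural cell, and hold them in place through Notch signalling, in which a ligand on one cell activates a receptor on its neighbour. In the ovary, vessels enter through the medulla and supply the stroma around the follicles, and growing follicles later build their own capillary network in the theca.

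The share of perivascular cells was 1.28% in replicate 1 (exact Clopper-Pearson 95% interval 0.948% to 1.70%) and 1.01% in replicate 2 (0.736% to 1.35%). The intervals overlapped, and like every interval and limit given here they cover counting error only. Dissociation can release cell types unequally, so these are shares of captured cells. The members together held 273649 UMIs in replicate 1 and 309646 in replicate 2, which means that a count of 0 over all members allows up to 5.14 UMIs per 1000000 UMIs of the class (CPM). The median depth was 4732 and 4566 UMIs per member, against 6623.5 and 4995.5 UMIs per interstitial cell. Interstitial cells, the stromal class used for comparison, were the 1428 and 2574 cells with at least 0.2% of their UMIs on Col1a2 and Dcn and at most 1 UMI of Rgs5.

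Some members lay near the edge of the rule. A stricter rule, with at least 3 UMIs of Rgs5 and 3 further genes, kept 39 members in replicate 1 and 38 in replicate 2. Exactly 2 UMIs of Rgs5 were found in 5 members, and exactly 2 of the 6 further genes in 13. Just outside the rule, 9 cells had 1 UMI of Rgs5 with enough further genes, 7 had 2 or more UMIs of Rgs5 with 1 further gene, and 3 had none of the further genes. A further 8 cells met the perivascular part but were left out for endothelial genes, 0 for germ cell genes and 1 by the quality filter. Of all cells outside the members, 0.461% in replicate 1 and 0.996% in replicate 2 had any UMI of Rgs5. The 2 libraries shared 21 cell barcodes, and 0 of these belonged to a member.

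The deepest 3 of the 93 members, each with over 20000 UMIs, stood apart from the rest. In replicate 2, a member with 40611 UMIs held 13.1% of the UMIs of that library's members, with 5 UMIs of Rgs5 and 0 of Kcnj8 beside 18 UMIs of Fst, 9 of Foxl2 and 7 of Wnt4, genes known from granulosa cells. The second such member of replicate 2 had 24537 UMIs, 2 of them Rgs5, 22 Fst and 12 Foxl2. In replicate 1, a member with 21125 UMIs had 19 UMIs of Rgs5 beside 17 of Fst and 11 of Amh, the anti-Müllerian hormone of granulosa cells, and was among 6 members marked as doublets by a doublet caller. Counts of called genes were therefore also taken without these 3 members, a choice made after the data were seen.

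Transcripts of other cell types were also counted among the members. The rule limited its own 6 endothelial genes in the members, so their low counts are partly fixed by the choice. Pecam1, Cdh5, Tie1 and Cldn5 were at 0, and 9 members had a UMI of any of the 6. Tek had 18.3 and 6.46 CPM in members against 2.11 and 2.27 in interstitial cells, and Kdr 0 and 9.69 against 3.39 and 2.21. Of 12 further endothelial genes, the transcription factors Sox17 and Sox18 and the VEGF receptor Flt1 were at 0 in the members. The most abundant of the 12 was Emcn, an endothelial sialomucin, with 40 and 28 UMIs. The 12 genes together reached 526 and 407 CPM against 5856 and 3656 in endothelial cells and 481 and 474 in interstitial cells. Of 10 immune genes, 7 were at 0, Ptprc among them, and the list together held 1 and 2 UMIs. The 12 granulosa genes together reached 153 and 404 CPM, with Fst leading at 17 and 47 UMIs and Fshr at 0, and fell to 43.6 and 164 without the 3 deep members. In interstitial cells the same genes reached 327 and 414 CPM. The 8 germ cell genes reached 43.9 and 80.7 CPM, led by Dppa3 with 3 and 11 UMIs and with Gdf9 at 0, and the 8 mesothelial genes 3.65 and 77.5, led by Krt8 with 0 and 9 UMIs. Krt19, Upk1b and Muc16 of the mesothelial list were at 0. The 6 erythroid genes reached 25.6 and 45.2 CPM, led by Hbb-bs with 4 and 8 UMIs and with Alas2 at 0. Of 6 Schwann cell genes, which together reached 84.0 and 80.7 CPM, Sox10 and Foxd3 were at 0. Stromal transcripts were not sparse. The 34 fibroblast matrix genes together reached 5160 and 4738 CPM in members against 16502 and 15255 in interstitial cells. In 8 members, 2 in replicate 1 and 6 in replicate 2, Col1a2 and Dcn made up 0.2% or more of UMIs, the limit that defines interstitial cells. Counts of calls were also taken without marked doublets, with members under 0.2% Col1a2 and Dcn, and with interstitial cells free of germ and endothelial transcripts. Against interstitial cells these settings gave, in that order, 496, 419 and 487 genes higher and 408, 391 and 406 lower. Beyond these settings and leaving out the 3 deep members, the part of these transcripts in the results was not tested.

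Rgs5, a regulator of G protein signalling and a classical pericyte gene on chromosome 1 (GRCm38, 169655501 to 169695813, plus strand), reached 2525 and 1408 CPM among the members in replicates 1 and 2. Single members held from 2 to 49 UMIs of Rgs5 with a median of 13 in replicate 1, and from 2 to 27 with a median of 8 in replicate 2. In interstitial cells, where the class was limited to at most 1 UMI per cell, the level was 0.183 and 1.17 CPM. The level was thus higher in the members of replicate 1, and every member carried the transcript by construction.

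Kcnj8 and Abcc9 encode the pore and the sulphonylurea receptor of the vascular ATP-sensitive potassium channel, and their genes lie next to each other on the minus strand of chromosome 6, with 16247 bases between them. Kcnj8 was detected in 87.5% and 88.9% of members against 3.08% and 2.76% of interstitial cells, and 0 and 3.85% of endothelial cells (0 of 61 and 1 of 26). Abcc9 was detected in 54.2% and 62.2% of members against 9.03% and 7.73% of interstitial cells. Thinned to 2000 UMIs per cell, the shares for Kcnj8 were 64.6% and 62.2% of members against 0.845% and 1.09% of interstitial cells, and those for Abcc9 31.3% and 44.4% against 2.68% and 2.78%. Both channel genes were thus high in the members of both libraries.

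Notch3, the Notch receptor of mural cells, had 259 and 158 CPM in members against 9.71 and 9.32 in interstitial cells. Cspg4, which encodes the NG2 proteoglycan, had 102 and 35.5 against 6.87 and 4.97. Mcam, an adhesion molecule also known from endothelium, had 278 and 184 CPM in members, 2.57 and 1.04 in interstitial cells, and 180 and 73.5 in endothelial cells. Of the 7 genes, Mcam was the only gene with a level above 10 CPM in either endothelial sum.

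Acta2, smooth muscle α-actin, had 1188 and 1337 CPM in members and 611 and 233 in interstitial cells. It was detected in 79.2% and 64.4% of members and in 71.0% and 36.2% of interstitial cells, and after thinning to 2000 UMIs per cell in 62.5% and 48.9% of members against 47.0% and 19.6% of interstitial cells. The members lay above the interstitial cells in both libraries, but by less than for the other 6 genes of the rule, as the plot of levels by class shows.

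**Figure D1:**
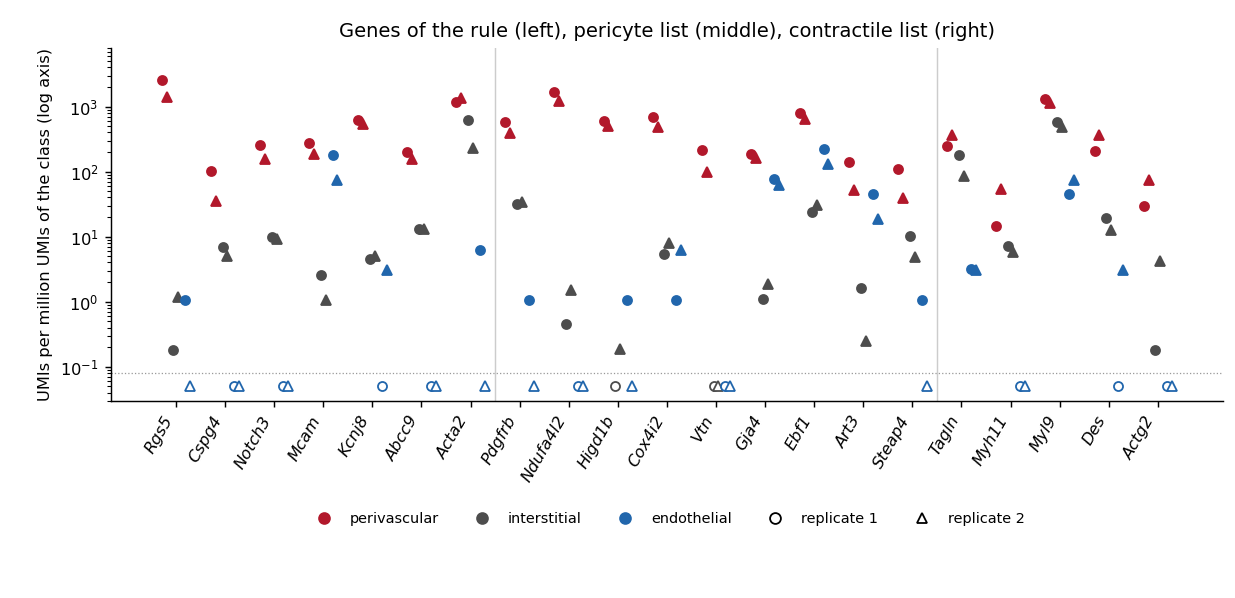
UMIs per 1000000 UMIs of the class (CPM, log axis) for genes of the rule, of the pericyte list and of the contractile list, in perivascular (red), interstitial (grey) and endothelial cells (blue); circles are replicate 1, triangles replicate 2, and open symbols below the dotted line are 0 UMIs. For Ndufa4l2 the perivascular sums lay at 1666 and 1211 CPM while those of interstitial cells lay at 0.458 and 1.53, and for Myl9 the classes were much closer.

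UMIs were summed per library and class, and the sums of members and interstitial cells were compared with edgeR's quasi-likelihood test over 11904 genes. A gene was called at an absolute log2 fold change over 1 with a Benjamini-Hochberg adjusted p under 0.05. Under this rule 478 genes (4.02% of those tested) were higher in the members and 387 (3.25%) were lower, with a median log2 fold change of -0.10 over all genes. Without the 3 deep members the counts were 422 higher and 290 lower.

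Genes that mark pericytes in other organs, and that the rule did not use, were higher in the members. Of 22 listed genes, 18 passed the filter on low counts and 15 were called higher and 0 lower, with a median log2 fold change of 5.78, and without the 3 deep members the counts were again 15 and 0. Vtn, the secreted adhesion protein vitronectin, had 58 and 31 UMIs in the members and 0 in the 4002 interstitial cells, so that its level was at least 1384-fold higher. Higd1b, a mitochondrial protein of the hypoxia-inducible HIG1 family, had 165 and 156 UMIs in members and 0 and 3 in interstitial cells, a ratio of 4992 (95% counting interval 1693 to 24336). Neither gene had more than 3 UMIs in either interstitial sum.

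Pdgfrb, the receptor through which endothelial PDGF-B recruits mural cells, had 160 and 120 UMIs in members, or 585 and 388 CPM, against 32.1 and 34.4 CPM in interstitial cells. Its log2 fold change was 3.83 ± 0.22 (SE worked back from the edgeR test, 2 replicates, edgeR adjusted p 7.8e-07). The libraries alone gave 4.18 in replicate 1 and 3.45 in replicate 2. A UMI of Pdgfrb was found in 91.7% and 88.9% of members, in 20.5% and 18.0% of interstitial cells, and in 1 of 61 and 0 of 26 endothelial cells, whose median depths were 13875 and 5781 UMIs. Thinned to 2000 UMIs per cell, the shares were 70.8% and 64.4% of members against 6.27% and 7.17% of interstitial cells. Pdgfrb was thus present at a low level in the stroma as well, and at or near 0 in endothelium.

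Some genes of this list encode mitochondrial or hypoxia-linked proteins. Ndufa4l2, a paralogue of the respiratory chain subunit Ndufa4 that lies on chromosome 10 (GRCm38, 127514967 to 127517154, plus strand), had 456 and 375 UMIs in members against 5 and 25 in interstitial cells, a log2 fold change of 10.32 ± 0.36. It was detected in 47 of 48 and 45 of 45 members, and in 0.280% and 0.816% of interstitial cells, and after thinning in 95.8% and 88.9% of members against 0% and 0.201%. Cox4i2, the alternative form of a cytochrome c oxidase subunit, was higher by 6.41 ± 0.27 on the log2 scale, and Epas1, which encodes the oxygen-regulated transcription factor HIF-2α, by 6.42 ± 0.43.

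The common counterparts of these genes did not move with them. Of 16 listed genes of oxygen response and metabolism, 15 were tested, 4 were called higher (Ndufa4l2, Higd1b, Cox4i2 and Epas1) and 1 lower, and the list median of -0.20 lay near that of all genes. Ndufa4 was the gene called lower, at a log2 fold change of -1.09. Cox4i1, the general form of the subunit, had a log2 fold change of 0.32 and did not pass, nor did Hif1a at -0.20 or Higd1a at -0.56.

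The remaining pericyte genes included transcription factors and junction proteins. Foxc1, a forkhead factor of vascular mesenchyme, had 7 and 7 UMIs in members against 2 and 2 in interstitial cells (log2 fold change 7.15 ± 0.76). Ebf1, an early B cell factor also found in mural cells, was higher by 4.66 on the log2 scale. Gja4, which encodes connexin 37, had 186 and 161 CPM in members and 1.10 and 1.84 in interstitial cells (log2 fold change 6.78 ± 0.31), and Gjc1, connexin 45, was higher by 2.63 log2 units. Anpep and Tbx2 were tested and did not pass, and the pericyte factor Zic1 was at 0 in the members.

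The contractile apparatus was higher in the members only in part. Of 25 genes of smooth muscle contraction and its cytoskeleton, 22 were tested, 9 were called higher and 0 lower, with a median log2 fold change of 1.17. Without the 3 deep members 9 were again higher, but Actg2 and Map1b were no longer among them. Des, the intermediate filament desmin of muscle cells, had 205 and 362 CPM in members against 19.6 and 12.5 in interstitial cells, a log2 fold change of 4.13 ± 0.29. Ppp1r14a, which encodes the inhibitor CPI-17 of myosin light chain phosphatase, was higher by 2.36 log2 units, and Cald1, the actin-binding caldesmon, by 1.46. Kcnmb1, the accessory subunit of the large-conductance potassium channel of smooth muscle, had 4 and 3 UMIs in members (log2 fold change 3.21).

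Transcripts known from mature smooth muscle differed in level and in whether they passed. Myh11, smooth muscle myosin heavy chain, had 4 and 17 UMIs in the members, or 14.6 and 54.9 CPM, against 7.06 and 5.83 in interstitial cells, and was called at a log2 fold change of 2.44 ± 0.53, a call that was lost when cells were thinned to 2000 UMIs. Actg2, γ-actin of smooth muscle, had 8 and 23 UMIs and was called at 4.45 ± 0.92, but not without the 3 deep members (edgeR adjusted p 0.0544). Tagln, which encodes SM22, had 245 and 365 CPM in members against 181 and 84.6 in interstitial cells, and its log2 fold change of 1.17 ± 0.33 missed the threshold (edgeR adjusted p 0.051), whereas with the library as a block it passed (adjusted p 1.9e-12). Cnn1, calponin, had 0 and 12 UMIs and did not pass.

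Myl9, the regulatory light chain that smooth muscle myosin needs for contraction, was detected in 95.8% and 93.3% of members and 91.6% and 81.4% of interstitial cells, and after thinning in 85.4% and 80.0% against 64.2% and 55.8%. Its level was 1305 and 1134 CPM against 576 and 480, a log2 fold change of 1.17 ± 0.15 (edgeR adjusted p 0.00046), higher in both libraries. Its promoter is shown because it carries the CArG box, the sequence bound by serum response factor at many smooth muscle genes. The window is chr2:156775214-156775513 on the plus strand of GRCm38.p6 (RefSeq), from 250 bases before to 50 after the start of the transcript, and the capitals at bases 90 to 99 mark the CArG box:
Myl9 promoter: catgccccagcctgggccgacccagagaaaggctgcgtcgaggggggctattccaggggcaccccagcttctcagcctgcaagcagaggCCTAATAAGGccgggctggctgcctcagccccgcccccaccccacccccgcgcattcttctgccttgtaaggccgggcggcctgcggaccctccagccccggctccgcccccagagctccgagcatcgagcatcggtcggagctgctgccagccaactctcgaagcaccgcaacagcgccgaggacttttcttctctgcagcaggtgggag
Of the contractile genes with a promoter in the RefSeq table, 2 of 20 held a CArG box in such a window, Myl9 and Vcl, the focal adhesion protein vinculin. Across all 32851 promoter windows 535 (1.63%) held a match on either strand, and by gene the share was 1.81%. A match of letters is a description of the sequence and not a measured binding site.

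Some contractile transcripts, Acta2, Tagln, Myh11 and Cnn1, came largely from a few members. The 5 members with the most Acta2, 4 of them in replicate 2 and 1 in replicate 1, had 107, 59, 56, 47 and 42 UMIs of Acta2 each. The cell of replicate 1, with 56 UMIs, was among the members marked as doublets. The 5 cells held 42.1% of the members' Acta2 UMIs, 57.8% of Tagln, 71.4% of Myh11 and 91.7% of Cnn1. The same cells held 6.57% of the Rgs5 UMIs, 5.17% of Ndufa4l2, 1.18% of Kcnj8 and 5.26% of all UMIs. These cells were picked for their Acta2, so the Acta2 share is fixed by the choice and the others are a description of 5 cells. Ranked by each quantity in turn, the top 5 members of replicates 1 and 2 held 21.2% and 33.8% of the summed contractile list, 20.3% and 18.7% of the summed pericyte list, 26.1% and 31.1% of Myl9 and 25.0% and 24.5% of Rgs5. The contractile list was thus about as even as the pericyte list in replicate 1, and Myl9 was close to Rgs5.

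In the median member, Acta2 had 3.5 UMIs in replicate 1 and 1 UMI in replicate 2, and Tagln and Myh11 had 0 in both. Myh11 was found in 3 of 48 and 4 of 45 members. Ndufa4l2 was more even, since the median member held 8.5 UMIs (replicate 1) or 7 UMIs (replicate 2) and the highest 24 or 21. The plot of single cells shows a few high points for Acta2 and Tagln above a low median, and a broad band for Ndufa4l2, Pdgfrb and Kcnj8. Across cells, summed contractile and summed pericyte UMIs after thinning had a Pearson correlation of 0.25 in the 48 members of replicate 1 and -0.01 in the 45 of replicate 2, weak values in sparse counts.

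**Figure D2:**
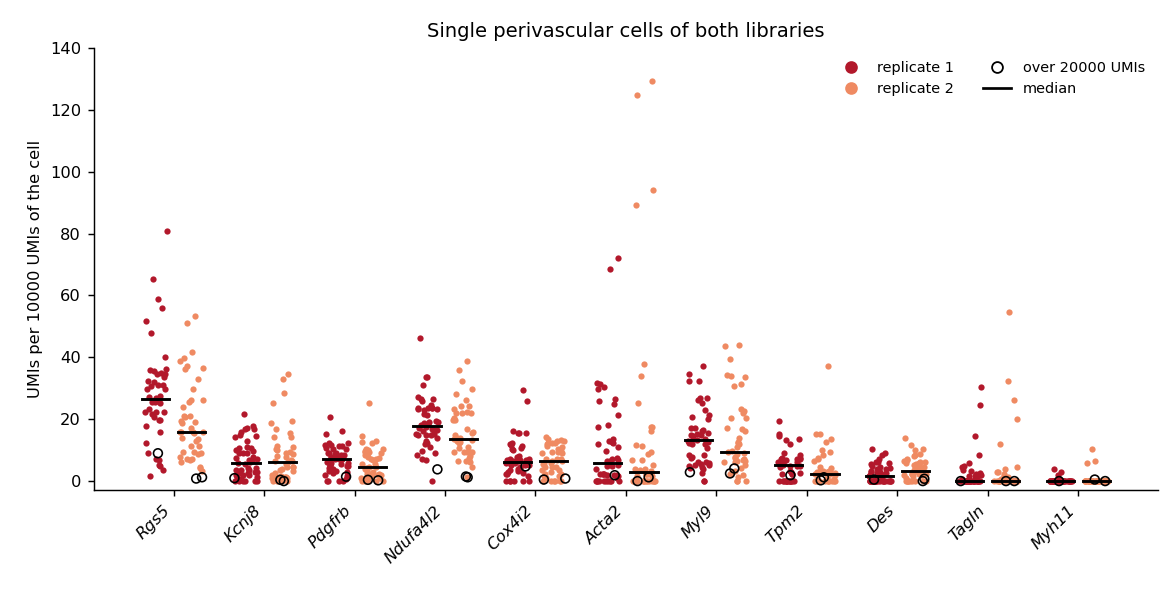
UMIs per 10000 UMIs of the cell for 11 genes in single perivascular cells of replicate 1 (dark) and replicate 2 (light), jittered sideways; black lines are medians and open rings the 3 members over 20000 UMIs. Acta2 ranged up to 129 per 10000 over medians of 5.94 and 2.79, and the rings lay below the medians for Rgs5, Kcnj8, Pdgfrb, Ndufa4l2 and Myl9.

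Notch signalling genes were examined as receptors, ligands, targets and machinery. Besides Notch3, which chose the members, Notch1 had 18 and 8 UMIs in members, or 65.8 and 25.8 CPM, against 5.86 and 6.62 in interstitial cells (log2 fold change 2.81 ± 0.47). Notch2 did not pass (log2 fold change 0.34), and Notch4, an endothelial receptor, was at 0. Of 5 ligands only Jag1, which mural cells also carry, was abundant enough to test, and it had 40.2 and 19.4 CPM against 2.84 and 3.25 (log2 fold change 3.22 ± 0.55).

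Of 6 listed target genes of the pathway, 5 were tested and 4 were called higher, with a median log2 fold change of 4.56, and 3 were called without the 3 deep members. Nrarp, which dampens Notch activity in a feedback loop, had 42 and 33 UMIs in members against 18 and 14 in the far larger interstitial sums, a log2 fold change of 6.70 ± 0.40. Heyl, a transcriptional repressor downstream of Notch3 in mural cells, had 318 and 220 CPM against 11.4 and 10.8 (log2 fold change 4.56 ± 0.22), and Hey2 had 4 and 8 UMIs (log2 fold change 4.63 ± 0.71). Hes1 was higher by 1.38 log2 units and was not called without the 3 deep members (edgeR adjusted p 0.0668). Hey1 did not pass, and Hes5 was at 0.

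Among 13 tested genes of the machinery, Adam10, a protease that cleaves the receptor, and Dtx3, of the Deltex family, were called higher at 1.08 and 1.01, and neither was called without the 3 deep members. The list median of 0.20 lay close to that of all genes. The pathway's calls that held without the 3 deep members were Notch1, Jag1, Nrarp, Heyl and Hey2.

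Hey2 is shown at its promoter, since it carries the core of the sequence bound by RBPJ, the DNA-binding partner of the Notch intracellular domain. The window is chr10:30842734-30843033 on the minus strand of GRCm38.p6 (RefSeq), printed in the direction of the gene. The core TGGGAA, searched on both strands, is in capitals at bases 44 to 49, where it reads as its reverse complement TTCCCA, and at bases 248 to 253:
Hey2 promoter: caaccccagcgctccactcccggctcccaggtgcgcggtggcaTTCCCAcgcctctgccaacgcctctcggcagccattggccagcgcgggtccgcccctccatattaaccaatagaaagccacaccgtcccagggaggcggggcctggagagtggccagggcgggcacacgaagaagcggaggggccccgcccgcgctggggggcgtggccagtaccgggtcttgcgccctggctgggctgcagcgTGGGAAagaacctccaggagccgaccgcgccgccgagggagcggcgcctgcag
Hey2 and Hes5 held the core, 2 of the 3 targets with a promoter in the RefSeq table, while 25.6% of all promoter windows and 28.3% of genes held it. A core of 6 letters is common, and its presence says nothing of use in these cells.

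Ligands and receptors of vessel growth went both ways. Of 19 ligands, 18 were tested, 4 were called higher and 3 lower, with a median of -1.11, and without the 3 deep members the counts were 2 and 2. Angpt2, the angiopoietin that destabilises vessels, had 62.1 and 32.3 CPM in members against 1.47 and 0.859 in interstitial cells, a log2 fold change of 5.31 ± 0.58. Pdgfa was higher by 1.77 ± 0.27 log2 units, and Tgfb1 by 1.23, a call lost without the 3 deep members (edgeR adjusted p 0.0668). Pdgfb rested on 4 UMIs in all, and its call at 3.77 ± 1.05 (edgeR adjusted p 0.05) was lost with the library as a block (0.076) and without the 3 deep members.

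Cxcl12, Ptn and Mdk were called lower in the members. Cxcl12, the chemokine that retains blood progenitors and guides vessels, had 51.2 and 35.5 CPM against 221 and 323 (log2 fold change -2.69 ± 0.30). Ptn, pleiotrophin, and Mdk, midkine, were lower, with log2 fold changes of -1.11 and -1.46, and Ptn was not called without the 3 deep members (log2 fold change -0.86). With the library as a block 7 ligands were called lower.

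Of 24 receptors, 21 were tested, with 6 called higher and 4 lower (3 without the 3 deep members) and a median of 0.43. Agtr1a, the angiotensin II receptor of contractile vessel cells, had 57 and 58 UMIs in members, or 208 and 187 CPM, against 2.29 and 1.96 in interstitial cells, a log2 fold change of 6.51 ± 0.25 (edgeR adjusted p 4.8e-08). Ednrb, an endothelin receptor, was higher by 2.97 ± 0.59 log2 units, Ednra, the other endothelin receptor, by 1.16, and S1pr3, a receptor of sphingosine-1-phosphate, by 2.61. Nrp1, a co-receptor of VEGF and semaphorins, was higher by 2.65 log2 units. Agtr1a, Ednra and Ednrb, 3 of the 6 receptors called higher, bind vasoconstrictor peptides. This grouping was made after the calls were seen, and the angiotensin receptor Agtr2 was called lower, at 32.9 and 22.6 CPM against 80.4 and 75.1.

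Pdgfra, the PDGF receptor of fibroblasts, showed the opposite pattern to Pdgfrb. It had 3 and 1 UMIs in members against 1470 and 2213 in interstitial cells, or 11.0 and 3.23 CPM against 135 and 136, a log2 fold change of -4.33 ± 0.39 (edgeR adjusted p 3.3e-05). Agtr2, the type 2 angiotensin receptor, S1pr2 and the hedgehog receptor Ptch1 were also lower, with log2 fold changes of -1.53, -1.33 and -1.63, and the call of S1pr2 was lost without the 3 deep members.

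**Figure D3:**
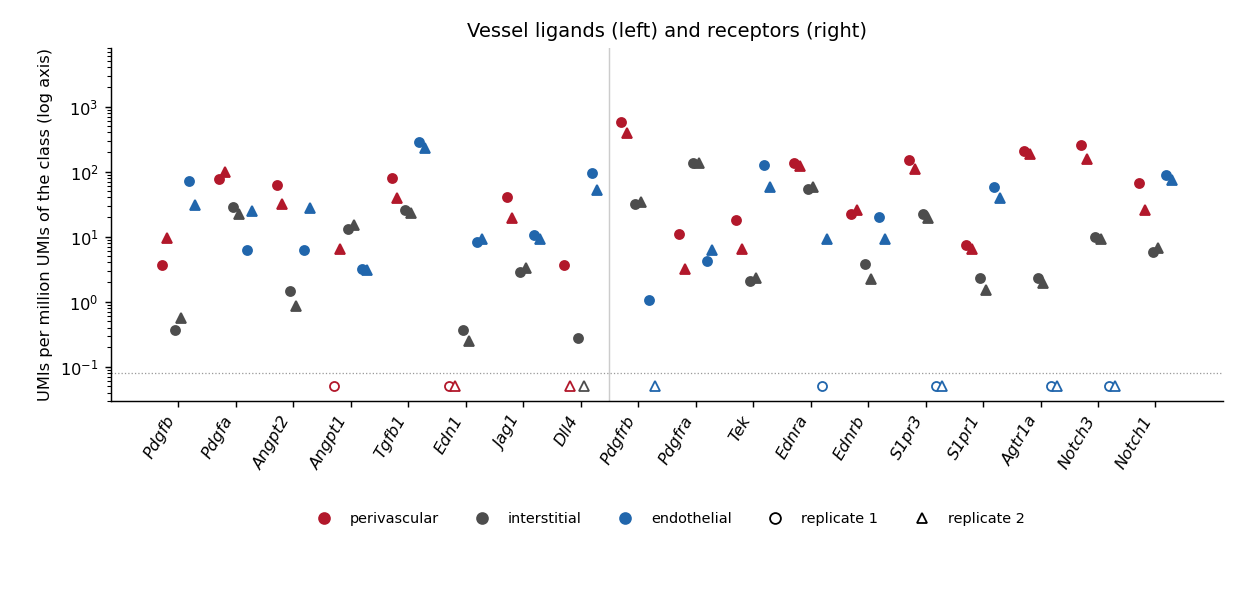
UMIs per 1000000 UMIs of the class (CPM, log axis) for ligands (left of the line) and receptors (right) in perivascular (red), interstitial (grey) and endothelial cells (blue); circles are replicate 1, triangles replicate 2, and open symbols below the dotted line are 0 UMIs. Pdgfrb lay at 585 and 388 in perivascular cells while Pdgfra lay at 135 and 136 in interstitial cells, and Agtr1a and S1pr3 were at 0 in endothelial cells.

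Genes that carry signals for contraction and relaxation were higher in part. Of 38 listed symbols, 36 were in the files and 32 were tested, 11 were called higher and 1 lower, and the median log2 fold change was 0.93. Avpr1a, the vasopressin receptor of vessels, had 9 and 12 UMIs in members and 0 and 2 in interstitial cells, a ratio of 490 (95% counting interval 120 to 4310). Rasl12, a small GTPase of the Ras family, had 157 and 113 CPM against 0.825 and 1.53 (log2 fold change 6.72 ± 0.38). Adora2a, an adenosine receptor that mediates dilation, was higher by 5.32 ± 0.51 log2 units, and Trpc6, a cation channel opened by receptor signalling, by 3.83.

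Genes of this list that belong to the nitric oxide and cyclic GMP pathway, picked after their values were seen, differed among themselves. Gucy1b1, a subunit of the nitric oxide receptor guanylate cyclase, had 267 and 165 CPM in members against 15.8 and 17.4 (log2 fold change 3.65 ± 0.24). Prkg1, the kinase activated by cyclic GMP, had 6 and 7 UMIs against 2 and 9 (log2 fold change 5.72 ± 0.76), and Pde3a, a phosphodiesterase, was higher by 2.31 log2 units. Gucy1a1, the partner subunit, and Pde5a had log2 fold changes of 0.64 each and were not called. Of the regulators of G protein signalling in the list, Rgs16 was higher by 3.93 log2 units and Rgs2 lower with a log2 fold change of -1.42, so that the family did not move together.

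Of 25 listed basement membrane genes, 20 were tested, 5 were called higher and 2 lower, 13 did not pass, and the median was 0.17. Col4a1 had 1327 and 714 CPM in members against 151 and 111 in interstitial cells (log2 fold change 2.93 ± 0.27) and Col4a2, its partner chain in the collagen IV network, was higher by 2.81 ± 0.20 log2 units. Lama4, the laminin chain of vessel walls, was higher by 2.90 ± 0.37 log2 units, Col18a1, the precursor of endostatin, by 3.66 ± 0.45, and the proteoglycan Agrn by 1.45. Lama2, a laminin chain of muscle and mesenchyme, was lower with a log2 fold change of -1.78, and Hspg2, perlecan, with a change of -2.23.

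Of 14 tested integrins, which are receptors for matrix proteins, 6 were called higher and 2 lower with a median of 0.57, and without the 3 deep members 3 and 1. Itga7, a laminin receptor of muscle, had 34 and 23 UMIs in members against 1 and 3 in interstitial cells (log2 fold change 9.20 ± 0.57), and Itga1, which binds collagen IV, had 563 and 378 CPM against 14.3 and 15.8 (log2 fold change 4.93 ± 0.23). Itga6 (log2 fold change 2.66), Itgb5 (1.17) and Itgb8 (-2.43, from 2 and 1 UMIs in the members) were among the calls lost.

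Adhesion and junction genes went both ways. Of 20 listed, 17 were tested, 5 were called higher and 4 lower (6 and 4 without the 3 deep members), with a median of -0.46. Besides the 2 connexins, Thy1 was higher by 5.70 ± 0.76 log2 units, from 14 and 12 UMIs in members, Esam, a junction protein of endothelium and mural cells, by 5.39 ± 0.36, and Cdh2, the N-cadherin that joins pericytes to endothelium, by 2.76. The adhesion molecules Ncam1 (log2 fold change -2.82 ± 0.26), Alcam, Cdh11 and Icam1 were lower, Icam1 not without the 3 deep members.

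Among the genes of other cell types, Emcn and Ecscr of the endothelial list were called higher beside Esam (log2 fold changes 4.81 and 2.96), and Cd34 and Ramp2 lower (-2.99 and -1.80). Ecscr was not called without the 3 deep members. In the granulosa list Amh was called higher on 11 and 2 UMIs, all of them in 2 of the 3 deep members, and could not be tested without these, and Foxl2 and Wnt4 were lower (log2 fold changes -1.37 and -2.31), the former not by DESeq2. Of the Schwann cell genes, Fabp7, a brain-type fatty acid binding protein, had 13 and 6 UMIs in members and 0 and 1 in interstitial cells, a ratio of 887 (95% counting interval 141 to 36835). In the germ cell, mesothelial, immune and erythroid lists 0 genes were called by edgeR in either direction, at an unadjusted p under 0.05 the counts were 0, 1, 1 and 2, and with the library as a block 3 erythroid genes and 1 germ cell gene were lower.

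Matrix genes of fibroblasts were lower in part. Of 34 listed, 33 were tested and 18 were called lower and 1 higher, with a median log2 fold change of -1.37, and 14 were lower without the 3 deep members. Mfap4, a microfibril protein, had 194 and 233 CPM in members against 2168 and 2235 (log2 fold change -3.40 ± 0.15), Col1a1, the main fibrillar collagen chain, 230 and 297 against 2174 and 1930 (log2 fold change -2.99 ± 0.16), and Lum, the proteoglycan lumican, 106 and 61.4 against 675 and 566 (log2 fold change -2.94 ± 0.24). Mfap5 had 0 and 2 UMIs in the members, a ratio of 10.2 in favour of the interstitial cells (2.81 to 84.1), and its call was lost on thinning. Postn, periostin, was the exception at 270 and 145 CPM against 64.3 and 37.8 (log2 fold change 1.98 ± 0.32). The interstitial class was chosen for Col1a2 and Dcn, so that genes which vary with these are not independent of that choice. Col1a2 itself had 636 and 652 CPM in members against 2643 and 2732.

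Transcription and signalling genes of the gonadal stroma were lower in part. Of 34 listed, 29 were tested, 10 were called lower and 1 higher (11 and 1 without the 3 deep members, and 12 and 3 with the library as a block), with a median of -1.11. Wnt5a, a secreted WNT ligand, had 1 and 0 UMIs in members against 427 and 489 in interstitial cells, a ratio of 19.6 in favour of the latter (3.51 to 776). Dlk1, a non-canonical Notch ligand of stromal progenitors, and the transcription factor Tcf21 were lower (log2 fold changes -2.65 and -2.18). Nr2f1, an orphan nuclear receptor, was higher by 3.03 ± 0.47 log2 units, while its relative Nr2f2 had a log2 fold change of -0.16 and did not pass.

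**Figure D4:**
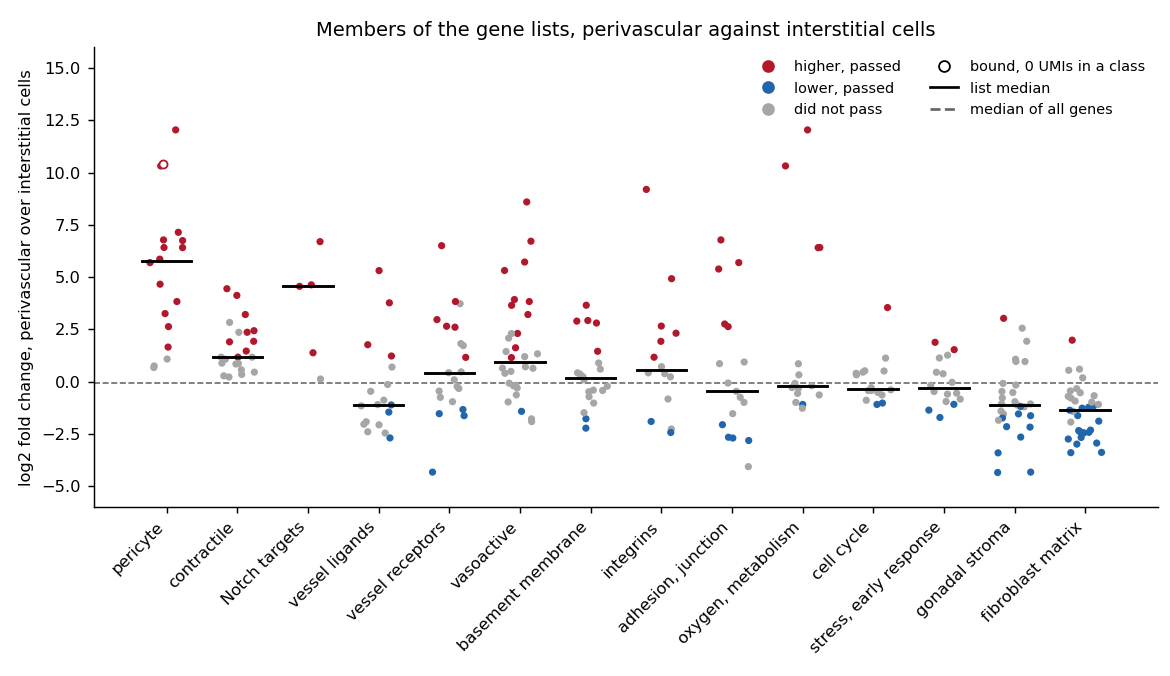
log2 fold change of perivascular over interstitial cells (y axis) for the tested genes of 14 lists (x axis), 1 point per gene, red or blue where a gene was called higher or lower and grey where it was not; black bars are list medians over all tested genes and the dashed line is the median of all genes, -0.10. Open points are lower bounds for genes with 0 UMIs in 1 class, and genes at 0 without a bound above 1 are not drawn. The pericyte points lie mostly above 2.5 with a median of 5.78, and the fibroblast matrix points mostly below 0 with a median of -1.37.

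Of 16 cell cycle genes tested, 1 was called higher and 2 lower, where 4.02% and 3.25% of all genes were, and without the 3 deep members 1 and 0. Ccnd1, cyclin D1, had 135 and 51.7 CPM in members against 8.25 and 7.18 (log2 fold change 3.55 ± 0.41). The CDK inhibitor Cdkn1c was lower with a log2 fold change of -1.09 and the topoisomerase Top2a with a change of -1.02, and both calls were lost under several settings. A UMI of Mki67 was found in 3 of 48 and 6 of 45 members, and of Top2a in 6 and 10.

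Stress and immediate early genes, which rise during dissociation, were mixed. Of 16 tested, Nr4a1 (log2 fold change 1.88 ± 0.17) and the heat shock gene Hspa1a (log2 fold change 1.53 ± 0.30) were called higher and Fosb (log2 fold change -1.72 ± 0.19), Socs3 (log2 fold change -1.36) and Jund (log2 fold change -1.09) lower, with a list median of -0.32. Fos itself had a log2 fold change of -0.95. Socs3 was not called without the 3 deep members.

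Outside the lists, genes were named by their fold change. Aspn, the small proteoglycan asporin, had 570 and 313 CPM against 2.38 and 1.53 (log2 fold change 7.81 ± 0.34). Tm4sf1, a surface protein of the tetraspanin-like family, had 212 and 173 UMIs against 102 and 112 (log2 fold change 6.34 ± 0.25). Both genes were high in both libraries and near 0 or low in the stroma.

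Cpxm2, a carboxypeptidase-like protein, had 33 and 36 UMIs in members and 0 and 1 in interstitial cells, a ratio of 3219 (95% counting interval 559 to 128980). Pcdh1, a protocadherin, had 21 and 10 against 2 and 1. Lgi1 differed between the libraries, with 29 UMIs in the members of replicate 1 and 2 in those of replicate 2. Mustn1 and Hopx, known from muscle, were higher by 8.50 log2 units and 7.97, Nostrin, which traffics endothelial nitric oxide synthase, by 8.03, Apold1, an early response gene of vessels, by 7.49, and the caveolin Cav2 by 6.37. The chemokine Ccl11 (log2 fold change 6.34), the matrix protein Frem2 (log2 fold change 6.54) and the transcripts Gm14005 (log2 fold change 7.79) and Adap2os (log2 fold change 8.14) were also higher. Some of these also differed between the libraries. Member levels in replicates 1 and 2 were 117 and 42.0 CPM for Hopx, 172 and 58.1 for Ccl11, 84.0 and 42.0 for Gm14005, and 80.4 and 16.1 for Adap2os. Adap2os is annotated as antisense, and whether the counting kept strands apart is not given in the sources used here.

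All 10 genes named at the lower end were at 0 in the members. Rprml, with 450 and 513 UMIs in interstitial cells, was at least 6.88-fold lower, Rtl3 6.42, Adcy7, an adenylate cyclase, 5.45, Efna5, an ephrin ligand, 5.37, and Arhgef19 4.34. For Lrfn5, Mmd2, Sct, Cacnb4 and Gpr37 the bounds lay between 3.57 and 4.17. The bounds are modest because the members held few UMIs. Lrfn5, Mmd2 and Gpr37 were not called without the 3 deep members, and after thinning to 2000 UMIs per cell none of the 10 was called.

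Endothelial cells, the other class of the vessel wall, were the 61 and 26 cells with 3 or more of the 6 endothelial genes of the rule and at most 1 UMI of Rgs5. Their median depth was 13875 and 5781 UMIs, so the depth gap was large in replicate 1. Over 4864 genes, 355 (7.3%) were higher in the members and 358 (7.36%) lower, and without the 3 deep members 412 and 401. The median log2 fold change over all genes was 0.00.

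Pericyte genes separated the members from endothelium as well. Of 16 tested, 14 were called higher and 0 lower, with a median of 5.81, or 5.22 with genes at 0 in endothelium set at their bound. Ndufa4l2 was at 0 in both endothelial sums and at least 608-fold higher in the members, and Vtn at least 65.1-fold. Pdgfrb had 1 and 0 UMIs in endothelium, a ratio of 615 (95% counting interval 109 to 24364). Epas1 had a log2 fold change of -0.07 and did not pass, so the 2 classes of the vessel wall carried it at levels of 139 and 96.9 against 153 and 70.5 CPM.

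Contractile genes were higher in the members than in endothelium for 9 of 14 tested (10 without the 3 deep members), with 0 lower and a median of 3.14. Des had 0 and 1 UMIs in endothelium, a ratio of 369 (65.3 to 14653), Tagln was higher by 6.42 ± 0.43 log2 units, Tpm2, a tropomyosin, by 5.83 ± 0.35 and Myl9 by 4.40. Myh11 was too low to test, with 4 and 17 UMIs in members and 0 in endothelium, at least 15.4-fold higher. Of 25 tested fibroblast matrix genes, 19 were called higher in the members and 1 lower, with a median of 2.46, and Postn was at 0 in endothelium and at least 87.1-fold higher.

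Ligands and receptors of the vessel wall were next set against endothelium. Dll4, the Notch ligand of endothelium, had 1 and 0 UMIs in members and 91 and 17 in endothelial cells, a ratio of 49.2 (8.64 to 1961) in favour of endothelium, and Jag2 was lower with a log2 fold change of -3.41 ± 0.77. The target Heyl had 0 and 3 UMIs in endothelium, a ratio of 113 (38.1 to 556) in favour of the members, and Notch2 was higher by 3.21 ± 0.64 log2 units, while Notch1 did not pass (log2 fold change -0.92 ± 0.43). Pdgfb, too low for the test, had 3.65 and 9.69 CPM in members against 71.3 and 30.6 in endothelium. Its receptor Pdgfrb was higher in the members, as given above.

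Apln, the ligand apelin, had 1 and 0 UMIs in members against 57 and 19, and its receptor Aplnr was at 0 in members and at least 51.5-fold lower. Flt1 was at 0 in members and at least 48.9-fold lower. Agtr1a and S1pr3 were at 0 in endothelium and at least 84.2-fold and 54.9-fold higher in the members. In all, 7 of 14 tested receptors were called lower and 4 higher, and of 8 ligands 3 were higher and 2 lower (4 and 2 without the 3 deep members). Of 16 vasoactive genes 8 were higher and 0 lower (8 and 1 without the 3 deep members), among them Gucy1b1 (log2 fold change 6.32 ± 0.58) and Gucy1a1 (log2 fold change 6.31).

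Of 12 tested basement membrane genes, 1 was higher in the members than in endothelium and 3 were lower, with a median of -0.06. Col4a1 had 1327 and 714 CPM in members and 1193 and 512 in endothelium (log2 fold change 0.16 ± 0.44, edgeR adjusted p 0.87), a difference smaller than its SE. Lamb1 was called higher (log2 fold change 1.23) and Hspg2 (log2 fold change -3.62 ± 0.44), Col18a1 (log2 fold change -1.34 ± 0.21) and Lamc1 (log2 fold change -1.05) lower, the call of Lamc1 was lost under several settings, and with the library as a block 5 were lower. Integrins Itga7, Itga8, Itga1 and Itgb5 were higher and Itga5 lower, and without the 3 deep members 4 were higher and 2 lower, with Itga6 among the latter. All 12 further endothelial genes were lower in the members, Emcn by -1.78 and Esam by -2.14, although both were above their levels in interstitial cells. The endothelial class was chosen on 6 genes of the same kind, which bears on that count.

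Outside the lists, Aspn, the transcript Tbx3os1, the homeobox factor Prrx1, Afap1l2 and Map3k7cl were at 0 in endothelium, with bounds from 60.7-fold to 185-fold. Gpihbp1, which holds lipoprotein lipase on capillary endothelium, Slc39a8, Rasip1, Icam2 and Ly6c1 were at 0 in the members and at least 111-fold, 60.9-fold, 55.0-fold, 48.7-fold and 48.3-fold lower.

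The study asked which cell types carry transcripts of long-lived proteins. Set against all other cells that passed the filter, 700 of 15353 genes (4.56%) were higher in the members and 899 (5.86%) lower, and without the 3 deep members 671 and 777. Of 341 genes of long-lived proteins named by the study for 5 cell types, 330 were tested, 19 were higher and 13 lower (22 and 15 without the 3 deep members), with a median of -0.05. Against interstitial cells, 321 were tested, 12 were higher and 10 lower (12 and 11 without the 3 deep members), with a median of -0.04, and against endothelial cells 10 were higher and 9 lower of 232. The last pair was 17 and 9 with the library as a block and 15 and 10 without the 3 deep members. With all members included, the shares of the list lay near or under those of all genes, so the counts are no result about the members.

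The 12 genes higher than in interstitial cells included Pdgfrb and Myh11 described above, the calcium- and actin-binding protein Efhd2 with 274 and 223 CPM against 21.4 and 18.0, and Map1b, Msn, As3mt, Actn4, Myh9, Prdx3 and Dmd. Map1b rested on replicate 2, with log2 fold changes of 0.29 in replicate 1 and 2.86 in replicate 2, and was not called without the 3 deep members (log2 fold change 0.69, edgeR adjusted p 0.49). The 10 lower genes included Pdgfra, Rmdn2, Inf2, Dpysl3, Itga9, Pla2g4a, Fscn1, Scpep1 and Sfr1, and Scpep1 was not called without the 3 deep members (log2 fold change -0.98, edgeR adjusted p 0.073). The symbols came from a list the study drew partly from these samples, so their count is not independent evidence.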

How the data were processed

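Single-cell 3′ RNA-seq of P2 ovaries was measured in 2 libraries. The authors deposited filtered UMI count matrices of 31057 genes, whose unit is raw counts; the submitters' processing notes name Cell Ranger 3.0.2 and GRCm38. The annotation release and the strand setting are not given in the sources used here. The labels name v2 chemistry and the methods a v3 kit, and the study's own cell filters and annotation were not used here.

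Cells were classed by the stated rule, and counts were summed per library and class. edgeR 4.0.16 (R 4.3.3; TMM, filterByExpr, glmQLFit and glmQLFTest, 2 sums per class) gave adjusted p-values over all genes tested, with the 18 genes of the class rules untested. The test sees only the spread between 2 pools of pups. Each ± value is an SE worked back from that test, as the absolute log2 fold change over the square root of its F statistic. The spread behind it is partly borrowed from other genes. Both classes of a comparison come from the same animals. Deviations from the class means correlated by 0.0971 (interstitial), 0.157 (endothelial) and -0.0150 (all other cells) between sums of the same library, and 857 of 865, 712 of 713 and 1555 of 1599 calls were also made with the library as a block. Genes called without a block are reported.

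Levels are UMIs per 1000000 UMIs of the class (CPM), not normalised for length. A ratio against 0 UMIs was bounded with 3 counts over both libraries. Shares of cells with a UMI are given for all cells, and those compared between members and interstitial cells also after thinning to 2000 UMIs per cell, which left out 99 interstitial cells and 0 members. Doublets were marked with Scrublet in scanpy 1.11.5 but kept, at the automatic score threshold of replicate 1 (0.225) in both libraries; that of replicate 2 was 0.521. Interstitial and endothelial classes shared 2 cells.

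The members and gene lists were chosen with earlier results of these data known. Named genes were the rule genes, up to 4 called members of each list with the largest absolute log2 fold change together with 8 fixed genes (Pdgfrb, Myh11, Tagln, Notch1, Heyl, Pdgfb, Col4a1 and Pdgfra), and outside the lists the 15 highest and 10 lowest called genes against interstitial cells and the 5 each way against endothelial cells with at least 20 UMIs and the same direction in both libraries. Other genes named in the text were chosen as list members for their known roles or to show a related gene, after their values were seen. Some genes that these rules chose are not reported here. The genes of long-lived proteins are 341 symbols from a supplementary sheet of the study, of which a shortened copy was at hand, so that the list is partial. Alternatives were library size or median-of-ratios scaling, no count filter, DESeq2 1.42.0, the library block, leaving out each replicate, thinning, removal of doublets, stricter and looser rules, a 5% mitochondrial limit, a narrower interstitial class and, added after seeing the data, members under 0.2% Col1a2 and Dcn and members up to 20000 UMIs. The test, but not the summing of cells, was run on simulated class sums. These were drawn independently of each other with a common dispersion, unlike sums of the same library.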

Additional observations from a re-analysis of the deposited data

How the results depend on the processing

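Most counts of calls stayed within 1.5 times of the reported ones. Thinning to 2000 UMIs per cell, which leaves fewer UMIs, gave 236 higher and 178 lower genes against interstitial cells with 5 contractile genes higher, 181 higher and 180 lower against endothelial cells, and 176 higher and 62 lower against all other cells. It also lowered the share of members with Acta2 in replicate 1 to 62.5% and with Des in replicate 2 to 48.9%. Against endothelial cells, DESeq2 called 231 higher and 220 lower, and testing every gene with at least 1 UMI called 657 higher and 679 lower with 16 contractile genes higher; the cause was not tested. The library block gave 534 higher and 544 lower genes against interstitial cells, 436 and 441 against endothelial cells, and 723 and 1173 against all other cells. Leaving out a replicate left a lone sum per class, which gives a log2 fold change but no test. Counts of calls are therefore not given for it. The other 254 values of shares and counts kept within their limits. Of 159 results on named genes, 116 kept their side of the threshold and their direction under every setting that gave a value; over all settings 2294 values kept it, 121 lost and 5 gained a call, and 0 changed direction. The counts of 93 members limit what can be seen: a gene below 5.14 CPM could be at 0 in the members.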
